A study of Mus musculus with 6 samples.

Results

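Ighm, the constant region gene of the immunoglobulin mu heavy chain, was examined together with other genes that define B cells in RNA from sorted synovial fibroblasts. The members were the rows of the raw count table with the symbols Ighm, Igkc, Cd79a, Cd79b, Ms4a1, Jchain or Ptprc. Of these 7 symbols, 3 (Ighm, Cd79a and Jchain) had a row among the 24348 genes of the table. Igkc, Cd79b, Ms4a1 and Ptprc had no row in the table and were not analysed here. Ighm was chosen by its low fold change in this same comparison and the other symbols as its partners, so its difference between groups is given as a description and is not a test.

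The cells were fibroblasts taken by flow cytometry out of digested synovium, the membrane that lines the joint, in C57BL/6 mice. One group of 3 libraries came from mice given immune complexes (ICs), which are antibodies bound to their antigen, and the other group of 3 came from mice given vehicle. The study's methods describe ICs of ovalbumin and rabbit anti-ovalbumin antibody injected into a vein. The labels give no age or sex, and do not state whether 1 library was 1 mouse, so the spread between libraries may be partly technical. No markers used for the sort and no time after injection were given in the sources used here.

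A B cell carries its antigen receptor as a membrane immunoglobulin joined to the signalling pair CD79A and CD79B, and naive cells use the mu chain for it. After activation, plasma cells secrete the mu chain as IgM, whose units are held together by the J chain. The adaptor BLNK and the phospholipase PLCG2 act below the receptor, and EBF1 and PAX5 are transcription factors that set up and keep the B lineage. Fibroblasts of lymphoid and joint tissue are known for making factors that attract or sustain B cells, among them CXCL13, CXCL12, IL-6 and BAFF.

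Ighm (ENSMUSG00000076617.9) lies at chr12:113418558-113422730 on the minus strand of GRCm38, the assembly that mm10 names, and has 1886 bases of annotated exon. No other annotated gene overlaps it. The annotation gives a secreted form, Ighm-201, with 4 exons and a membrane form, Ighm-202, with 6 exons. Both share their first 1305 coding bases and part ways at the end of the coding sequence. The coding ends are shown because a count per gene pools both forms, so the values below cannot tell surface receptor from secreted IgM. In the secreted end the capitals mark the cysteine codon of the tailpiece, the residue through which the J chain is bonded.
Ighm-201, secreted coding end, chr12:113420867-113420928, minus strand: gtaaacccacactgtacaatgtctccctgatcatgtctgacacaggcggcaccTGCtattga
Ighm-202, membrane coding end, chr12:113418953-113419068 joined to chr12:113418826-113418834, minus strand: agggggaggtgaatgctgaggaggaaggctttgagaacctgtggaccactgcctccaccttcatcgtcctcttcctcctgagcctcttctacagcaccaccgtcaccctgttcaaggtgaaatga

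Ighm was low in all 3 IC libraries. Its raw counts were 68, 30 and 78 in IC replicates 1, 2 and 3, and 339, 233 and 160 in vehicle replicates 1, 2 and 3. Divided by the size factors of DESeq2, these became normalised read counts of 74.9, 31.0 and 69.9 after IC and of 278, 220.1 and 195 after vehicle. The groups did not overlap, and the lowest vehicle library stood 2.60-fold above the highest IC library. The IC libraries averaged 58.6 ± 24.0 and the vehicle libraries 231 ± 42.7 (SD, n = 3 each), so the IC mean was 25.4% of the vehicle mean. On the log2 scale IC minus vehicle was −1.98 (standard error 0.36). In bulk RNA, fewer cells that express a gene and less of its RNA per cell cannot be told apart.

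The difference in Ighm rested on 176 reads after IC and 732 after vehicle. Its coefficient of variation was 41.0% among IC libraries and 18.5% among vehicle libraries, where counting error alone gives 13.1% and 6.40%. Libraries of one group therefore differed by more than counting error, with a highest-to-lowest ratio of 2.42 after IC and 1.43 after vehicle. Leaving out any 1 library gave log2 fold changes from −2.19 to −1.68. Of the 2 members that could be tested across all genes, 1 passed an adjusted p of 0.05 (DESeq2). This was Ighm, the gene picked by this same comparison. Over all 19925 genes tested, 2.1% passed in either direction, 1.07% as lower and 1.03% as higher after IC. Groups that did not overlap, as those of Ighm, were found for 15.8% of these genes, 7.67% with IC lower and 8.09% with IC higher. The edgeR quasi-likelihood test did not call Ighm and called 0.186% of genes, whereas limma-voom called Ighm and 0.311% of genes.

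Cd79a encodes the signalling partner of the mu chain in the B cell receptor. It did not separate the groups. The gene (ENSMUSG00000003379.7) lies at chr7:24897381-24902197 on the plus strand and has 1457 bases of exon. Its normalised read counts were 102, 121 and 58.2 in IC replicates 1, 2 and 3, and 136, 107 and 124 in vehicle replicates 1, 2 and 3. IC replicate 2 was above vehicle replicate 2, and IC replicate 3 was the lowest of the 6 libraries. The means were 93.9 ± 32.2 and 122 ± 14.8 (SD, n = 3 each), or −0.38 on the log2 scale (standard error 0.37). Without 1 library at a time, the log2 fold change ran from −0.61 to −0.13.

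The promoter of Cd79a, also called mb-1, is a textbook target of EBF1, PAX5 and ETS factors, and is shown since it is the only promoter of a B cell receptor gene found in both the count table and the RefSeq promoter table. The stretch below is the part of the 300-base RefSeq window (GRCm38.p6) that lies before the GENCODE gene start. Capitals mark the PU box core GAGGAA, read on the other strand.
Cd79a, chr7:24897247-24897380, plus strand: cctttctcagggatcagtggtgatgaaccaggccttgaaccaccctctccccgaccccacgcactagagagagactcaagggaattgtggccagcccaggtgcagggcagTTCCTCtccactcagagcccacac
The PU box core occurred 1 time in the whole Cd79a window, and in 28.3% of 32851 windows of the same length when both strands were searched. The EBF1 core CCCNNGG occurred 1 time in the Cd79a window and in 50.7% of all windows. Its match begins at base 279 of the Cd79a window, past the 134 bases shown. The octamer core TTTGCAT had 0 matches there and was in 4.63% of all windows. The Jchain window held 0 matches to each of the 3 motifs. The motifs do not overlap in the Cd79a window, and a match of letters is not evidence of a bound site.

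Jchain, which encodes the protein that links IgM and IgA units, was close to absent. The gene (ENSMUSG00000067149.6, chr5:88519809-88527891, minus strand) had 3, 0 and 0 counts in IC replicates 1, 2 and 3, and 33, 7 and 0 in vehicle replicates 1, 2 and 3. The gene was thus at 0 in 3 libraries, and vehicle replicate 1 alone held 76.7% of its 43 counts. It did not have enough counts to be tested, and both groups contained libraries at 0.

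**Figure D1:**
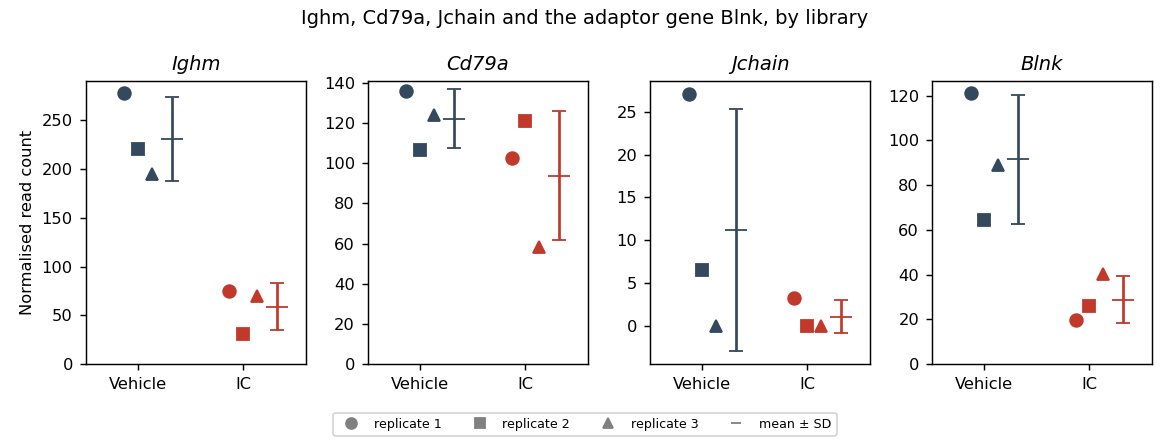
Normalised read counts (linear axes, one scale per gene) of the 3 members with a row and of Blnk in the 3 vehicle and 3 IC libraries. Symbols are libraries and the bar beside them is the mean ± SD. Ighm ran from 195 to 278 after vehicle and from 31.0 to 74.9 after IC, whereas the groups of Cd79a and Jchain overlapped.

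The balance between the 2 measured receptor genes differed from library to library. The ratio of the normalised read counts of Ighm to those of Cd79a was 2.04, 2.06 and 1.57 in vehicle replicates 1, 2 and 3, and 0.731, 0.256 and 1.2 in IC replicates 1, 2 and 3. The highest ratio after IC was below the lowest after vehicle, and the ratio uses the values by which Ighm was picked. Across the 6 libraries, log2 normalised read counts of Ighm and Cd79a had a Pearson r of 0.347, given as a description of libraries that share their groups.

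Levels of genes were next set side by side per kilobase of exon, unlike the ratio of Ighm to Cd79a above, which was not corrected for length. Over all 6 libraries the mean level of Ighm was 76.7 normalised counts per kilobase, at percentile 38.3 of the tested genes. The mean level of Cd79a was 74.2, at percentile 37.8, and that of Jchain was 2.45, at percentile 1.14. Ighm stood at 122 after vehicle and 31.1 after IC on this scale, and Cd79a at 83.9 and 64.4. Per kilobase, Ighm was above Cd79a in all 3 vehicle libraries and below it in IC replicates 1 and 2. In IC replicate 3 it was at 37.1 against 40.0, an order that depends on the length used. The 1886 bases of Ighm pool the exons of both forms, whose transcripts have 1493 and 1698 bases. This comparison also uses the values by which Ighm was picked. All 14 fibroblast genes listed lay above both, from 170.3 per kilobase for Clic5 to 106068 for the collagen gene Col1a1, with 4808 for Pdgfra, a receptor that marks fibroblasts.

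**Figure D2:**
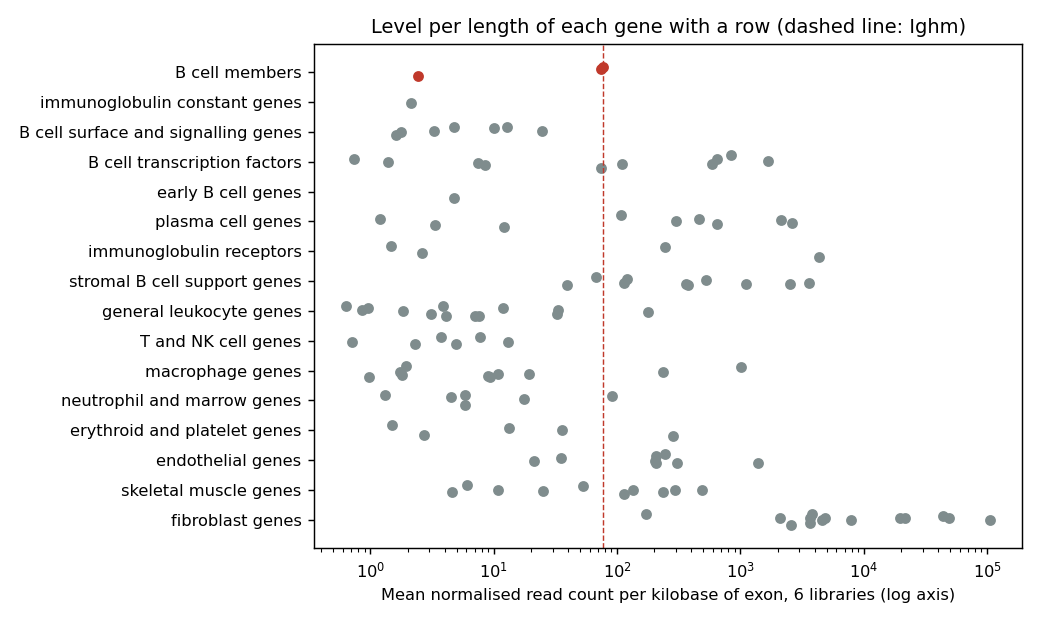
Mean normalised read count per kilobase of exon over the 6 libraries (log axis) for each gene with a row, by gene list. Red points are the 3 members and the dashed line is the level of Ighm, 76.7. The 14 fibroblast genes all lie to the right of the line.

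Genes that accompany Ighm in B cells mostly had no row or very low counts. Of 10 further immunoglobulin constant genes, 1 had a row. This was Ighd, the delta constant gene, which begins 2234 bases from Ighm on the same strand and is made from the same primary transcript in naive B cells. Ighd had 0, 6 and 0 counts in IC replicates 1, 2 and 3, and 12, 0 and 7 in vehicle replicates 1, 2 and 3. Per kilobase, Ighm was 38.0-fold above Ighd after vehicle. Of the 346 symbols of immunoglobulin variable segments in GENCODE, 0 had a row. The annotation used for counting is not given, and every row was above 0 in 3 or more libraries. A missing row is therefore not a measured 0. Of 7 genes of early B cells, 1 had a row, and this was Vpreb1, a surrogate light chain gene, at 7.17 ± 2.46 normalised counts in IC libraries and 4.35 ± 4.12 in vehicle libraries.

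Among 21 further genes of the B cell surface and of receptor signalling, 7 had a row and 5 were tested. Cd22, Cr2 and Cxcr5 were among the 14 with no row. DESeq2 called 1 of the 5, as lower after IC, and 0 as higher, and it gave 2 of the 5 no adjusted p. Their median log2 fold change was −0.34, beside −0.0019 over all genes tested. The summed level of the list was 3.65 to 5.42 CPM (counts scaled to the library total) after IC and 4.70 to 6.93 after vehicle, and these ranges overlapped.

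The gene called was Blnk, the adaptor that couples the receptor to PLCG2. Blnk (ENSMUSG00000061132.13) had normalised read counts of 19.8, 25.8 and 40.3 in IC replicates 1, 2 and 3, and of 121, 64.2 and 88.8 in vehicle replicates 1, 2 and 3. The groups did not overlap. After IC the mean was 28.7 ± 10.5, down from 91.4 ± 28.7 (SD, n = 3 each), which is −1.67 on the log2 scale (standard error 0.50, adjusted p = 0.0362, DESeq2). The call was lost without IC replicate 1 (adjusted p = 0.160, DESeq2), IC replicate 2 (0.157), vehicle replicate 1 (0.176) or vehicle replicate 3 (0.135). It was also lost with edgeR (adjusted p = 0.186), with limma-voom (0.248) and with the replicate number as a block in DESeq2 (0.159).

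Other genes of this list with a row were not called or not tested, and their groups overlapped. Plcg2, which acts next to Blnk, had 49.0 ± 26.9 normalised counts after IC and 61.7 ± 9.27 after vehicle (log2 fold change −0.34, adjusted p = 0.926, DESeq2). Cd40, the receptor for T cell help, which fibroblasts can also carry, had 92.0 ± 15.3 after IC and 74.7 ± 19.6 after vehicle (log2 fold change 0.30, adjusted p = 0.899, DESeq2). Btk, the kinase of the pathway, had 0, 6 and 0 counts in IC replicates 1, 2 and 3 and 18, 10 and 0 in vehicle replicates 1, 2 and 3, and was not tested.

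Transcription factors of the B lineage ranged from very low to high counts. Of 12 factors, 10 had a row and 8 were tested, 1 of them without an adjusted p from DESeq2. The DESeq2 test called 0 of them, with 1 higher and 1 lower at an unadjusted p under 0.05, and edgeR also called 0, with 1 at an unadjusted p under 0.05. The median log2 fold change was −0.14. Without vehicle replicate 1, 2 of the 8 were called (Bach2, adjusted p = 0.0146, and Bcl6, 0.00272, DESeq2), and without IC replicate 3, 1 was called (Bcl6, 0.0350).

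Ebf1, which starts the B cell programme and is also known from stromal and fat lineages, was the most abundant of them. Its normalised read counts were 17356 ± 808 after IC and 15587 ± 771 after vehicle, a difference of 0.15 on the log2 scale (adjusted p = 0.391, DESeq2). Per kilobase, Ebf1 stood at 1688, percentile 95.4 of tested genes. Bcl6, a repressor of germinal centre B cells that other cells also make, had 3509 ± 327 after IC and 4437 ± 550 after vehicle (log2 fold change −0.34, adjusted p = 0.0766, DESeq2). Foxo1, a factor used by many cell types, had 5436 ± 317 after IC and 5746 ± 76.5 after vehicle (adjusted p = 0.849, DESeq2).

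Pax5, the factor that keeps B cells committed, ran opposite to Ighm, and is described after its values were seen. It had 9, 15 and 54 counts in IC replicates 1, 2 and 3, and 0 in each vehicle library. With 0 vehicle reads, against a floor of 3 counts over the vehicle group, the IC level was at least 25.4-fold higher. Without IC replicate 3, which held the largest share of the 78 reads, it was at least 13.1-fold higher. Pax5 had 10 or more counts in fewer than 3 libraries and was not tested. Since every row of the table was above 0 in at least 3 libraries, any gene at 0 in the vehicle libraries had to be above 0 in all 3 IC libraries. Of the 24348 rows, 96 were at 0 in all vehicle libraries and 46 at 0 in all IC libraries. Mzb1, Zap70 and S100a8, from other lists, were also at 0 in all vehicle libraries, with fewer IC reads than Pax5.

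Plasma cell genes did not follow Ighm as a list. Of 11 listed, 9 had a row and 8 were tested, with 0 called by DESeq2 or edgeR. DESeq2 gave 1 of the 8 no adjusted p. At an unadjusted p under 0.05, 3 were higher after IC with each test and 0 were lower with DESeq2. The median log2 fold change was 0.20. Without vehicle replicate 1, 1 gene was called (Prdm1, adjusted p = 0.0381, DESeq2). The list holds genes that every secreting cell uses. Xbp1, a driver of the secretory programme, had 8918 ± 863 normalised counts after IC and 7982 ± 689 after vehicle (log2 fold change 0.16, adjusted p = 0.586, DESeq2). Txndc5, a protein-folding enzyme, had 10343 ± 1023 and 8947 ± 856 (log2 fold change 0.21, adjusted p = 0.354, DESeq2). Sdc1, the gene of the plasma cell marker CD138 and also expressed outside the blood lineage, had 1741 ± 125 and 1799 ± 133 (log2 fold change −0.05, adjusted p = 0.960, DESeq2).

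Receptors that bind immunoglobulin were measured because the treatment itself delivers antibody. Of 7 listed, 4 had a row and 3 were tested. DESeq2 and edgeR called 0 of them, with 0 at an unadjusted p under 0.05, and the median log2 fold change was −0.15. Without vehicle replicate 1, 1 was called, Fcgrt, with an adjusted p of 0.0142 (DESeq2). Fcgrt encodes the neonatal Fc receptor, which recycles IgG, and had 8687 ± 328 normalised counts after IC and 9613 ± 1336 after vehicle. Fcgr2b, the inhibitory IgG receptor of B cells and macrophages, had 14.3, 8.27 and 0.896 in IC replicates 1, 2 and 3, and 11.5, 22.7 and 32.8 in vehicle replicates 1, 2 and 3. These groups overlapped, and DESeq2 gave Fcgr2b no adjusted p. Fcmr, the receptor for IgM, had no row.

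Genes by which stromal cells attract or support B cells were well measured, and changed in both directions. Of 12 listed, 10 were tested, and 2 rose and 1 fell. The median log2 fold change was 0.06. Cxcl13, the chemokine that draws B cells into follicles, rose from 313 ± 71.1 to 526 ± 95.3 normalised counts (log2 fold change 0.75, standard error 0.22, adjusted p = 0.0352, DESeq2). Leaving out any 1 library other than vehicle replicate 2 ended that call, with adjusted p-values up to 0.354. Il6, a growth factor for plasma cells, rose from 7117 ± 908 to 10386 ± 2063 (log2 fold change 0.55, standard error 0.13, adjusted p = 0.00183, DESeq2). Its call was lost without IC replicate 3 (adjusted p = 0.0630, DESeq2), vehicle replicate 2 (0.0759) or vehicle replicate 3 (0.0754).

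Vcam1, an adhesion molecule that holds B cell precursors to stroma, fell from 5379 ± 590 to 4008 ± 95.7 (log2 fold change −0.42, standard error 0.10, adjusted p = 0.00146, DESeq2). This call held with any 1 library left out. Cxcl12, which retains B cell precursors in the marrow, had 18334 ± 1484 after IC and 22727 ± 3428 after vehicle (log2 fold change −0.31, adjusted p = 0.0929, DESeq2). Without vehicle replicate 1, Cxcl12 was called (adjusted p = 0.000241, DESeq2) and Cxcl13 was not (0.0741). Tnfsf13b, the gene of the survival factor BAFF, had 739 ± 28.4 and 824 ± 72.7 (log2 fold change −0.16, adjusted p = 0.815, DESeq2). The edgeR test called 0 of the 10, and 4 were at an unadjusted p under 0.05.

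**Figure D3:**
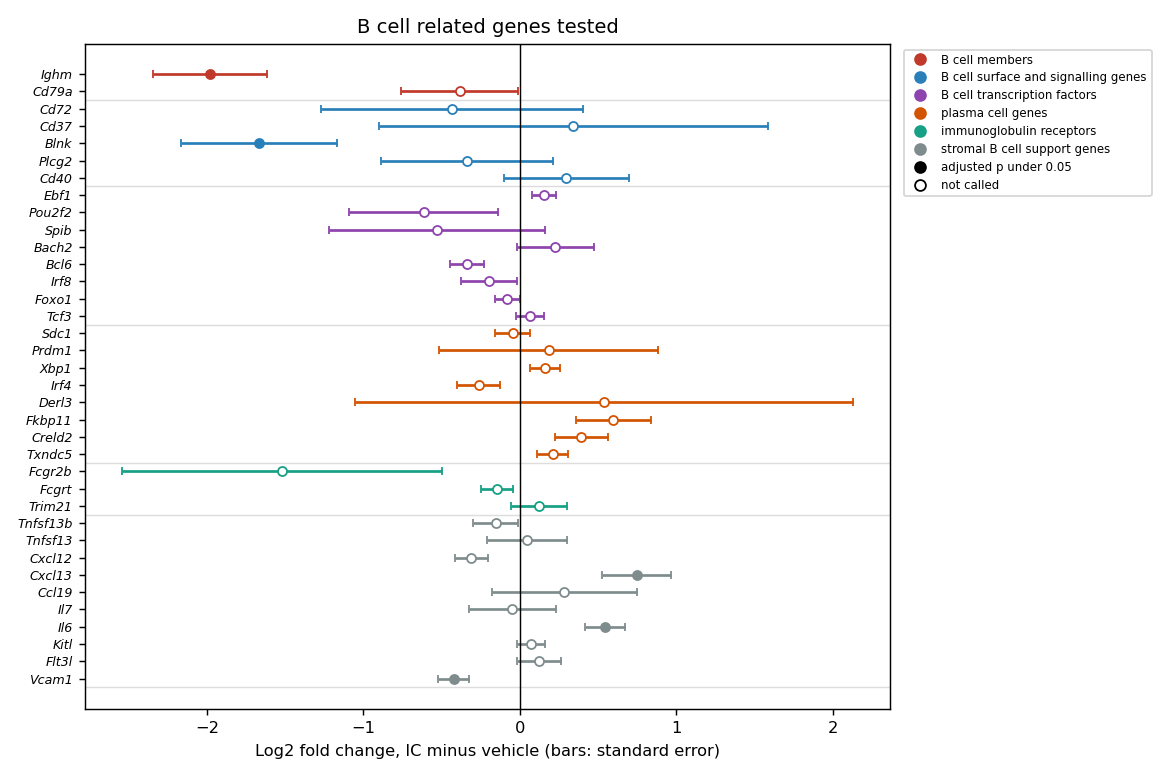
Log2 fold change of IC against vehicle with its standard error for the 2 tested members and the tested genes of 5 B cell related lists. Filled points passed an adjusted p of 0.05 (DESeq2), among them Ighm at −1.98, Blnk at −1.67, Il6 at 0.55 and Vcam1 at −0.42, and open points did not.

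Markers of other cells were set beside Ighm. Of 16 general leukocyte genes, 13 had a row and 8 were tested, and DESeq2 and edgeR called 0. DESeq2 gave 5 of the 8 no adjusted p, so it could not call these. At an unadjusted p under 0.05, 1 was lower with DESeq2 and 1 was found with edgeR. Their median log2 fold change was 0.16, with 4 of 8 below 0, and their summed level was 10.5 to 12.6 CPM after IC and 12.4 to 14.5 after vehicle. Members differed in direction, and groups did not overlap for 2 of the 8 with IC lower and for 1 with IC higher. Over all genes tested, these shares were 7.67% and 8.09%. Coro1a, an actin regulator of leukocytes, had 26.6 ± 8.35 normalised counts after IC and 12.7 ± 1.56 after vehicle without overlap (log2 fold change 1.06), and DESeq2 gave it no adjusted p. Ptpn6, a phosphatase of blood cells, had 107 ± 25.5 normalised counts after IC and 74.1 ± 24.2 after vehicle (log2 fold change 0.53, adjusted p = 0.730, DESeq2). Itgal, an integrin of leukocytes, had 64.1 ± 9.69 and 92.6 ± 8.86 (log2 fold change −0.53, adjusted p = 0.707, DESeq2). Arhgdib, a gene expressed strongly in leukocytes, had 236 ± 44.5 normalised counts after IC and 374 ± 19.0 after vehicle (log2 fold change −0.66, adjusted p = 0.0861, DESeq2). The groups of Itgal and Arhgdib did not overlap either. Of the 15 T and NK cell genes 6 had a row, of the 15 macrophage genes 10, of the 11 neutrophil and marrow genes 6, and of the 9 erythroid and platelet genes 5. DESeq2 and edgeR called 0 genes in these 4 lists, with 0 at an unadjusted p under 0.05. In that order, their median log2 fold changes were −0.05, −0.25, −0.54 and 0.29 over the 4, 6, 2 and 2 genes tested. Of these, 3, 2, 1 and 0 had no adjusted p from DESeq2 and could not be called by it. Their summed levels overlapped between groups, at 2.16 to 2.37 against 1.37 to 2.93 CPM for T and NK cell genes and 32.3 to 50.4 against 40.4 to 52.4 for macrophage genes, and at 2.96 to 4.31 against 3.28 to 5.37 for neutrophil and marrow genes and 31.0 to 37.6 against 32.7 to 35.7 for erythroid and platelet genes.

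The summed levels of 2 tissue lists moved with Ighm. All 8 endothelial genes were tested and had a log2 fold change below 0, beside 50.4% of all genes tested. Their median was −0.48, and 2 fell. Their summed level was 196 to 261 CPM after IC and 267 to 312 after vehicle. Kdr, the VEGF receptor of vessels, fell from 2255 ± 224 to 1386 ± 212 normalised counts (log2 fold change −0.70, adjusted p = 3.45e-05, DESeq2), and stayed called with any 1 library left out. Cdh5, the cadherin of vessel walls, fell from 1096 ± 133 to 657 ± 249 (adjusted p = 0.0496, DESeq2), and was called without IC replicate 1 but not without any of the other 5 libraries, where adjusted p-values reached 0.245. Tek, the endothelial gene with the highest mean, had 6330 ± 450 normalised counts after IC and 6639 ± 325 after vehicle (log2 fold change −0.07, adjusted p = 0.888, DESeq2). All 10 skeletal muscle genes likewise had a log2 fold change below 0, with a median of −1.71, and 3 fell. DESeq2 gave 1 of the 10 no adjusted p. Their summed level was 28.6 to 72.8 CPM after IC and 78.7 to 160 after vehicle. Without vehicle replicate 2, 0 muscle genes were called, and without IC replicate 1, 6 were. Myf5, a factor of muscle precursors, fell from 385 ± 83.6 to 91.4 ± 62.7 normalised counts (log2 fold change −2.08, adjusted p = 0.000122, DESeq2), and its call was lost without IC replicate 2 (0.292) or vehicle replicate 2 (0.346). The part of endothelial and muscle RNA in the difference in Ighm was not tested.

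Within the groups, Ighm did not keep one order with the tissue markers, nor with Blnk and Cd79a. IC replicate 2 had the lowest Ighm, at 0.134 of the vehicle mean, beside 0.325 and 0.303 in IC replicates 1 and 3. For Myf5 the lowest was IC replicate 3, at 0.0675 of the vehicle mean. Kdr was 0.560 of its vehicle mean in both IC replicates 2 and 3 and 0.723 in IC replicate 1. Blnk was lowest in IC replicate 1, at 0.217 of its vehicle mean. Among the IC libraries, Cd79a was highest in IC replicate 2, at 0.989 of its vehicle mean. Over the 6 libraries the Pearson r of Ighm was 0.868 with Blnk, but 0.216, 0.375 and −0.210 with the B cell genes Plcg2, Irf8 and Bach2. It was 0.925, 0.722, 0.592 and 0.398 with the endothelial genes Kdr, Emcn, Cdh5 and Pecam1, 0.749 and 0.751 with the muscle genes Myf5 and Pax7, and 0.731 and 0.267 with the fibroblast genes Pdgfra and Col1a1. These genes were chosen after values were seen, the libraries share their groups, and the values are descriptions that set no list apart from another.

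**Figure D4:**
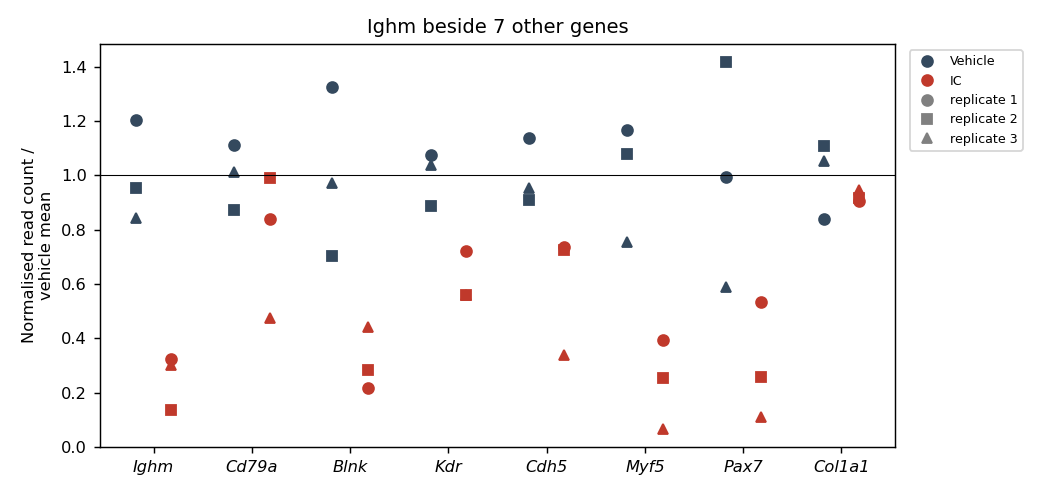
Normalised read count divided by the vehicle mean of the same gene (linear axis) for Ighm and 7 other genes in each library. Ighm lies between 0.134 and 0.325 in the IC libraries, while Cd79a reaches 0.989 and Col1a1 stays between 0.905 and 0.945.

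The fibroblast list, which the cells were labelled for, was measured in full. All 14 genes were tested, with a median log2 fold change of −0.14, and 1 rose (Prg4, the lubricin gene of the lining layer) and 3 fell (Lum, Clic5 and Col15a1). Without vehicle replicate 1, 9 were called, without IC replicate 2 or IC replicate 3, 2 each, and without vehicle replicate 3, 1.

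Genes whose log2 normalised read counts tracked Ighm most closely over the 6 libraries, among 13433 genes with a mean of at least 100, were Ptprg (Pearson r = 0.992), Zfp759 (0.990), Sytl2 (0.989), Gm32817 (0.987) and C030015A19Rik (0.987). None is on the lists of B cell genes used here. The log2 fold changes of these 5 ran from −0.92 for Gm32817 to −0.18 for Ptprg, a receptor phosphatase gene, beside −1.98 for Ighm. In total 190 genes had an r of at least 0.9 with Ighm. For Cd79a, whose groups overlapped, the number was 180, so the count is not particular to Ighm. The libraries share their groups, and these values are descriptions.

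The neighbours of the members were checked, since the use of strand in counting was not stated. On the other side of Ighm from Ighd, the next gene with a row, Gm9517, lies 207264 bases away. Cd79a is followed after 715 bases, on the same strand, by Arhgef1, a gene with 10847 ± 358 normalised counts after IC and 9638 ± 694 after vehicle (log2 fold change 0.17, adjusted p = 0.364, DESeq2). No annotated gene overlaps Cd79a or Jchain.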

How the data were processed

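Total RNA sequencing libraries of 3 IC and 3 vehicle samples were compared. Per the labels and methods, the authors trimmed reads with Trim Galore, checked them with FastQC, aligned them to mm10 with HISAT2 and counted them per gene with featureCounts. The deposited values are raw counts. Tool versions, the annotation and the use of strand are not given in the sources used here, and the labels and methods name different total RNA kits. Total counts were 40114331 to 56714304 per library, and the per-sample files were identical to the columns of the combined table. All table rows were above 0 in 3 or more libraries.

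The 19925 genes that reached 10 counts in 3 or more libraries were fitted with DESeq2 (version 1.42.0, R 4.3.3), with treatment as the only term. Calls required a p below 0.05 after Benjamini-Hochberg adjustment, which DESeq2 withheld for 3870 genes. Normalised read counts are counts divided by the DESeq2 size factor. Alternatives were edgeR (version 4.0.16), limma-voom (version 3.58.1), other scalings and filters, a block for the replicate number, a term for 1 surrogate variable (sva version 3.50.0, which the methods name without details) and each library left out. The fits were tested on simulated data. Within each group, libraries differed beyond sampling noise (chi-square per degree of freedom 16.0 to 76.7), and each was counted once.

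Coordinates and exon lengths are from GENCODE M21 (98.0% of symbols matched). RefSeq promoters were found for Cd79a, Jchain and Ptprc. The members and gene lists were chosen with earlier results of these data known. In each list, called genes and the 3 with the highest mean could be named, as were the 5 genes most like Ighm. Other genes named were chosen after their values were seen.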

Additional observations from a re-analysis of the deposited data

How the results depend on the processing

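Ighm was picked by this same comparison, so its calls in the alternatives describe the fits and are not support. It kept its direction in all 15 alternatives and was called in 14 of them. Its log2 fold change ran from −2.07 to −1.98 across the alternatives that kept every library and from −2.19 to −1.68 when 1 library was left out, where Cd79a ran from −0.61 to −0.13. The exception was edgeR, which called 0 members and 37 genes in all (12 higher and 25 lower after IC), against 419 (205 and 214) in DESeq2. It also called 0 genes among B cell surface, stromal support, endothelial, skeletal muscle and fibroblast genes, where DESeq2 called 1, 3, 2, 3 and 4. With limma-voom, 62 genes were called (25 higher and 37 lower), with 0 in the B cell surface, stromal support and skeletal muscle lists, 1 endothelial and 1 fibroblast gene. Total-count scaling called 1 B cell transcription factor (Bcl6) and 1 endothelial gene, and 1 endothelial gene was also called without independent filtering and with 1 surrogate variable. A minimum of 10 counts in all libraries called 1 skeletal muscle gene. The replicate block called 0 B cell surface genes and 6 skeletal muscle genes, and 320 genes in all, of which 272 were shared. Deviations of same-numbered libraries had correlations of −0.0503, −0.0503 and −0.00998. With 3 libraries per group these values cannot settle whether the libraries were paired, which is not known. When 1 library was left out, counts ran from 281 to 677 for all genes, 123 to 320 higher, 127 to 357 lower, 1 to 1 for members, 0 to 1 for B cell surface, plasma cell and immunoglobulin receptor genes, 0 to 2 for transcription factors, 1 to 3 for stromal support and endothelial genes, 0 to 6 for skeletal muscle genes and 1 to 9 for fibroblast genes. The highest total, 677, came without vehicle replicate 1. The causes of these shifts were not tested. With 908 Ighm reads over 6 libraries and 43 of Jchain, depth limits what can be said of the rarer genes.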
